A study of Rattus norvegicus with 6 samples.

Results

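The genes described here are 10 genes of glutathione synthesis and peroxide defence that the transcription factor NRF2 is known to control or that form its switch: Nfe2l2, Keap1, Gclc, Gclm, Gss, Gsr, Gpx1, Gpx2, Txnrd1 and Srxn1. They were chosen by name, with earlier results of these data known. Their probes were found by the RefSeq accession printed for each probe. All 10 had a probe, 19 probes in all, among 15645 genes that could be named on the array. Liver RNA came from male Sprague-Dawley (Crl:CD(SD)) rats, bought at 5 weeks of age. It was read on 6 one-colour Cy3 arrays, each replicate taken as 1 animal. Rats of the TBBC group (n = 3) were dosed with the 4,4'-thiobis compound of 6-tert-butyl-m-cresol, abbreviated TBBC here, a sulfur-bridged phenolic antioxidant, at 300 mg/kg/day. Control rats (the vehicle group, n = 3) were given corn oil. The labels do not settle the length of dosing, since 28 days stands in the series text and 9 weeks in the protocol.

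NRF2, the product of Nfe2l2, is held in the cytosol and marked for destruction by KEAP1 until oxidants or electrophiles modify KEAP1. It then enters the nucleus, pairs with a small MAF protein and binds antioxidant response elements near its target genes. Glutathione is made by glutamate-cysteine ligase and glutathione synthetase, is spent by glutathione peroxidases that reduce peroxides, and is returned to its reduced form by glutathione reductase. The thioredoxin branch runs in parallel and serves the peroxiredoxins, which sulfiredoxin repairs when they are over-oxidised.

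Antioxidant response elements share the core TGACNNNGC, and a form with G in place of C, TGAGNNNGC, is also bound by NRF2. Both were searched on both strands of a window from 250 bases before to 50 bases after the gene start, in RefSeq sequence of the build GRCr8. Such a window was found for 9 of the 10 genes, with 2 windows for Txnrd1. At least 1 match lay in a window of 6 genes: Nfe2l2, Gclm, Gpx1, Gpx2, Txnrd1 and Srxn1. Among all 33469 windows of that length 12.1% held the first form, 17.2% the second and 27.1% either. Windows are printed for Gpx2 and Srxn1, the genes with the widest difference between the groups, for the Txnrd1 window that holds a match, and for Gclc, the gene lowest with TBBC relative to vehicle. Each runs 5′ to 3′ along the gene's strand, and capitals mark the matches.
Gpx2, chr6:101229984-101230283, minus strand: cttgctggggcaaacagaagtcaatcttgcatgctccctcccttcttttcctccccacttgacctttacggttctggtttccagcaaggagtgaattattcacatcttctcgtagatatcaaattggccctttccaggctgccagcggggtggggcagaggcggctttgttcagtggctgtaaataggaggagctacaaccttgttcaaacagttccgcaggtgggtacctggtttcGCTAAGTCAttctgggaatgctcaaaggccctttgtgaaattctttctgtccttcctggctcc
Srxn1, chr3:161064562-161064861, plus strand: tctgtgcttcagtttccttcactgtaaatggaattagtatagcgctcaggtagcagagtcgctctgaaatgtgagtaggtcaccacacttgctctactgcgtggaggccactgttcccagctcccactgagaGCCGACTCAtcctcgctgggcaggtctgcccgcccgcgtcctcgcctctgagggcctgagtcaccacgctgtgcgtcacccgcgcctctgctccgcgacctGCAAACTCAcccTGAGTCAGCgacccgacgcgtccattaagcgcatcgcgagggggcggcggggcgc
Txnrd1, chr7:22755855-22756154, minus strand: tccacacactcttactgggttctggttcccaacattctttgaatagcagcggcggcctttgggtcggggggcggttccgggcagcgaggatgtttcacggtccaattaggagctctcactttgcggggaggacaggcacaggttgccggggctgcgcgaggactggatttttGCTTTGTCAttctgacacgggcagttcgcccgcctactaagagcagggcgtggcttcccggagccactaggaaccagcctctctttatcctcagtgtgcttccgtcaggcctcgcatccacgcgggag
Gclc, chr8:87510226-87510525, plus strand: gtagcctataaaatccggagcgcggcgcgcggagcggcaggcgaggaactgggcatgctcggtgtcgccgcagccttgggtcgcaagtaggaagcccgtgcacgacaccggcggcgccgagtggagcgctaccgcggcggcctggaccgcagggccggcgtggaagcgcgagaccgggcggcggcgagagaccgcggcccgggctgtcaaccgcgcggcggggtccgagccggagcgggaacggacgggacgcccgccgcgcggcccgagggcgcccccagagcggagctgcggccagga
In Gpx2 the match reads GCTAAGTCA on the printed strand, which is TGACTTAGC on the other, at positions -13 to -5 from the start. Srxn1 held 3 matches of the second form, 1 of them TGAGTCAGC from -5 to 4. The Txnrd1 match lay at -78 to -70, and the Gclc window held none. A match in such a window is a description of the letters and says nothing of binding in these livers.

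Signals are given as log2 of the scanner's processed intensity relative to the 75th percentile of all probes on the same array, so 0 means a spot as bright as that percentile. A gene with several probes is represented by the brightest, and brightness cannot be set against that of another gene's probe. Arrays carried 61537 probes, with between 36919 and 39386 well above background. Vehicle replicate 2 had the lowest 75th percentile (465 intensity units against 578 to 638 on the other 5 arrays) and the widest spread of spike-in control signals (9.11% against 3.01% to 4.11%). The file headers put the 3 TBBC arrays on 1 slide read in 1 scan and the 3 vehicle arrays on another slide read in another scan, so slide, scan and treatment cannot be told apart. All 9 hepatocyte markers were well above background on every array. In a tissue sample a change in RNA per cell and a change in the share of the cells that hold it cannot be told apart.

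With TBBC, the signals of Gpx2, Srxn1, Gsr, Gpx1 and Keap1 lay above the vehicle range on every array, while those of Nfe2l2, Gclc, Gss and Txnrd1 overlapped with it. Gpx2, an intestinal-type glutathione peroxidase, had the widest gap at 43.6-fold (95% interval 6.18 to 308), followed by Srxn1 (sulfiredoxin) at 1.93-fold, Gsr (glutathione reductase) at 1.61-fold and Gpx1 (the main cytosolic glutathione peroxidase of liver) at 1.39-fold. The interval for Gpx2 assumes equal spread in both groups, which its arrays did not have. Keap1 was at 1.25-fold. None of these passed the threshold of limma at an adjusted p of 0.05 over all 29326 features: 0 of 9 tested genes were called, against 1.68% of all features called higher and 1.40% called lower. Without vehicle replicate 2, whose Gpx2 signal stood apart, 1 of 9 was called (Gpx2), where 0.471% of all features were called higher and 0.252% lower. That array was singled out by its Gpx2 signal, so this call of Gpx2 carries no weight of its own. At an unadjusted p under 0.05 all 5 were higher with TBBC and 0 of 9 were lower, where 9.48% of all features were higher and 13.5% lower. The groups did not overlap, TBBC above vehicle, for the same 5 of 9 genes against 12.3% of all features, and TBBC below vehicle for 0 of 9 against 18.8%. The genes were chosen with earlier results of these data known, so these shares are a description only. The tenth gene, Gclm, was too dim to pass the filter. The median log2 difference of the 9 genes was 0.32 and that of all features was -0.06.

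**Figure D1:**
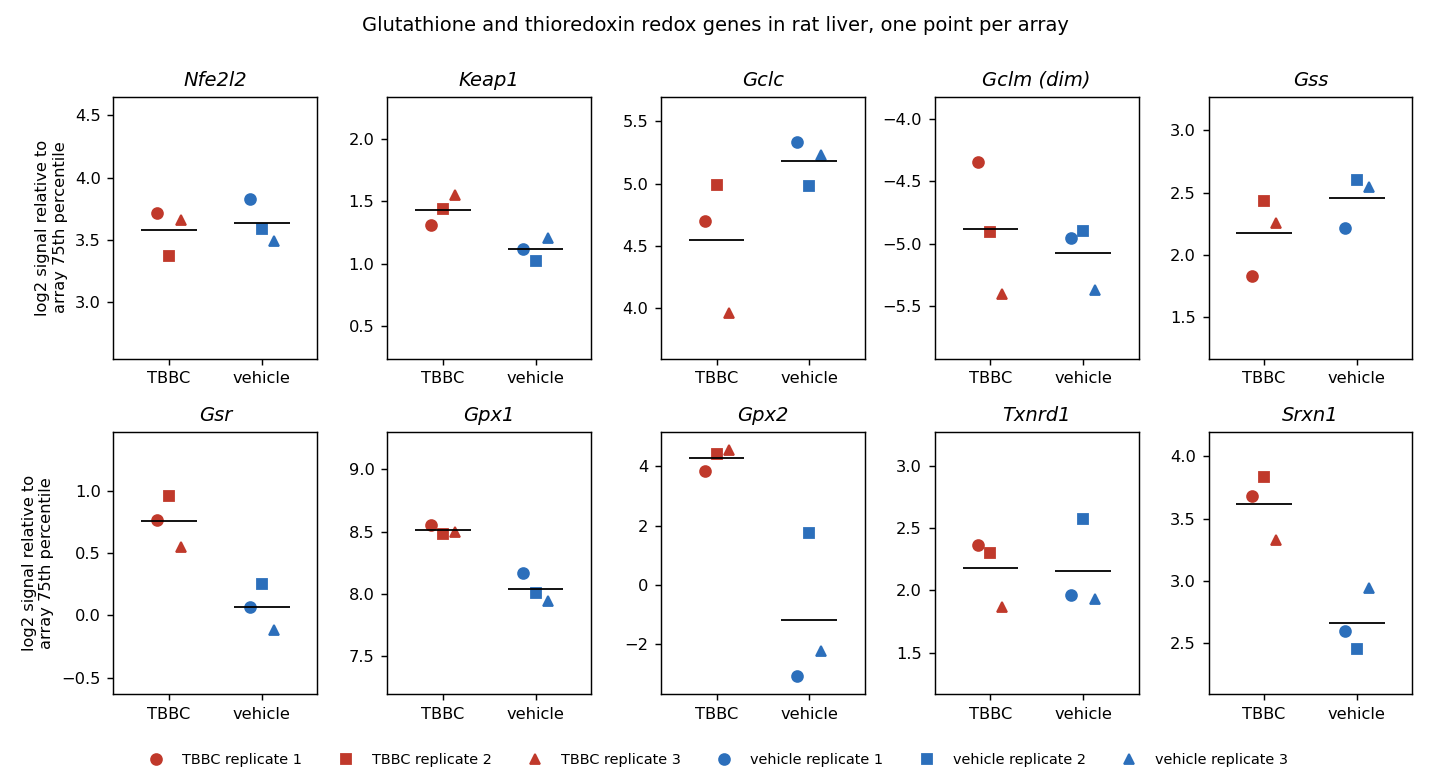
Signal of each gene's representing probe on every array, as log2 relative to the array's 75th percentile (y axes differ between panels), with TBBC arrays in red left of vehicle arrays in blue and bars at the group means. Gpx2 on vehicle replicate 2 lies far above both other vehicle arrays, at 1.76 against -3.08 and -2.22.

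Nfe2l2, which encodes NRF2, measured 3.72, 3.37 and 3.66 (log2 relative signal) on TBBC replicates 1 to 3, against 3.83, 3.59 and 3.49 on vehicle replicates 1 to 3. The groups overlapped, with a log2 difference of -0.06 ± 0.15 (SE, n = 3 per group, adjusted p = 0.846 by limma) and a 95% interval from -0.41 to 0.30. A second probe gave -0.01 ± 0.19. Keap1, the sensor that holds NRF2 back, measured 1.31, 1.44 and 1.56 on the TBBC arrays, against 1.12, 1.03 and 1.20 on the vehicle arrays. Every TBBC array was above every vehicle array, yet the difference of 0.32 ± 0.12 did not pass (adjusted p = 0.180 by limma).

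Of the enzymes that make glutathione, Gclc, the catalytic subunit of glutamate-cysteine ligase and the rate-limiting enzyme, was at 4.70, 4.99 and 3.96 with TBBC, against 5.33, 4.98 and 5.23 with vehicle. TBBC replicate 3 was the lowest array and TBBC replicate 2 lay just above the lowest vehicle array, so the groups overlapped. The log2 difference was -0.63 ± 0.27 (adjusted p = 0.225 by limma), and it was -0.34 without TBBC replicate 3. The spread was wider with TBBC (SD 0.53) than with vehicle (SD 0.18). A second Gclc probe showed TBBC replicate 3 lowest too, with -0.16, 0.36 and -0.84 on the TBBC arrays against 0.46, -0.12 and 0.35 on the vehicle arrays. Its difference was -0.44 ± 0.32.

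Gclm, the regulatory subunit of the same ligase, had 1 probe, which cleared the background test on 2 of 3 TBBC arrays and 0 of 3 vehicle arrays. It measured -4.34, -4.90 and -5.40 with TBBC, against -4.95, -4.90 and -5.37 with vehicle. TBBC replicate 3 was the lowest of the 6 arrays and the groups overlapped. Without the filter on dim probes the difference was 0.19 ± 0.29 (adjusted p = 0.744 by limma), and no fold is given for a probe that dim. Gss, glutathione synthetase, which adds glycine in the last step, was at 1.83, 2.43 and 2.26 with TBBC, against 2.22, 2.60 and 2.55 with vehicle. The groups overlapped and the difference of -0.28 ± 0.19 did not pass (adjusted p = 0.414 by limma, 95% interval -0.74 to 0.18).

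Gsr, which uses NADPH to return oxidised glutathione to its reduced form, measured 0.77, 0.96 and 0.54 on the TBBC arrays, against 0.07, 0.26 and -0.12 on the vehicle arrays. All TBBC arrays lay above all vehicle arrays by at least the gap between 0.54 and 0.26. The difference was 0.69 ± 0.16 (adjusted p = 0.0732 by limma, 95% interval 0.31 to 1.07). Gpx1 measured 8.55, 8.48 and 8.50 with TBBC, against 8.17, 8.004 and 7.95 with vehicle, and here the TBBC arrays were the tighter group, with an SD of 0.035 against 0.117. Its difference was 0.47 ± 0.11 (adjusted p = 0.0769 by limma). A second Gpx1 probe gave 0.38 ± 0.10, also without overlap.

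Gpx2 is best known from the lining of the gut and is a classical NRF2 target. It measured 3.83, 4.42 and 4.56 on the TBBC arrays, against -3.08, 1.76 and -2.22 on the vehicle arrays. The 3 TBBC arrays lay within 0.73 log2 units of each other, whereas the vehicle arrays spanned 4.84, because vehicle replicate 2 stood 15.8-fold above the higher of the other two. Even so, the lowest TBBC array exceeded vehicle replicate 2 by 4.18-fold. The log2 difference of 5.45 ± 1.18 (adjusted p = 0.0657 by limma) was larger in size than that of 99.97% of all features. That SE assumes the same variance in both groups, whereas the SD was 0.39 with TBBC and 2.58 with vehicle. It is therefore only a rough guide to the precision for this gene. Without vehicle replicate 2 the difference was 6.92 ± 0.34, or 121-fold, and passed (adjusted p = 0.00446 by limma). Since that array was singled out by its Gpx2 signal, leaving it out narrows the vehicle spread by construction. The pass is a description only. Without vehicle replicate 1 or 3 it was 4.50 or 4.93 and did not pass (adjusted p = 0.146 and 0.130 by limma).

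All 3 Gpx2 probes showed the same order of arrays. One of them measured 2.45, 3.02 and 3.12 with TBBC, against -4.60, 0.16 and -3.81 with vehicle. Another measured -0.46, 0.04 and 0.08 with TBBC, against -7.14, -2.57 and -5.98 with vehicle, and of the vehicle arrays it exceeded background clearly on 1 of 3. On the first of them the difference was 5.61 ± 1.16, and vehicle replicate 2 stood 15.6-fold above the higher of the other vehicle arrays. On the second it was 5.11 ± 1.08, a value that includes 2 vehicle arrays whose signals were not well above background. No probe of Gpx2 passed when every probe was tested on its own (adjusted p = 0.0566 to 0.0628 by limma), where 3.22% of 37222 probes did.

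**Figure D2:**
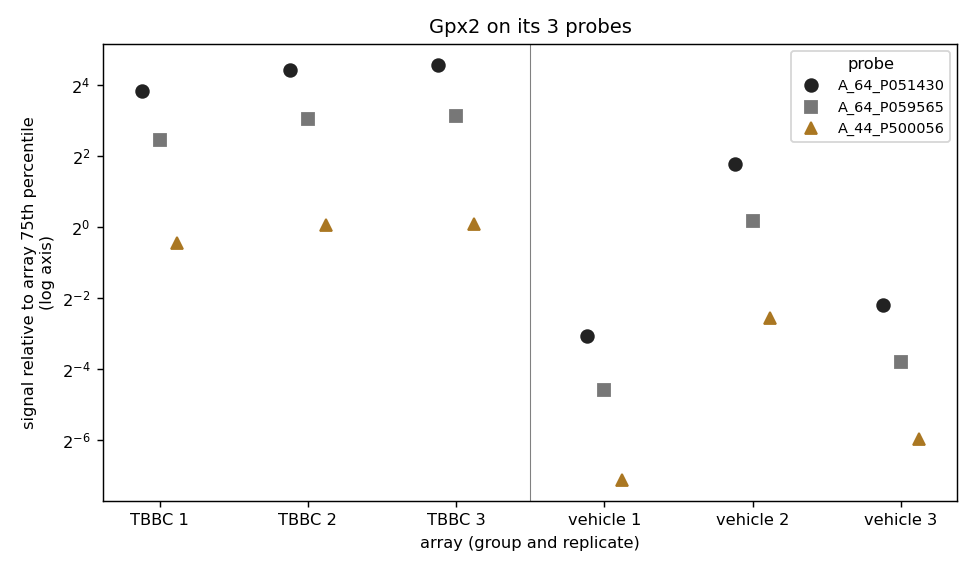
Signal of the 3 Gpx2 probes on each array relative to the array's 75th percentile (log axis), TBBC arrays left of vehicle arrays. On every probe vehicle replicate 2 lies between the TBBC arrays and the other 2 vehicle arrays.

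Among the vehicle arrays, replicate 2 was highest for 4 of the 9 tested genes (Gpx2, Txnrd1, Gsr and Gss), between the others for 2 and lowest for 3 (Srxn1, Gclc and Keap1). Its lead over the higher of the other vehicle arrays was 3.98 log2 units for Gpx2, 0.61 for Txnrd1, 0.19 for Gsr and 0.056 for Gss. Markers of bile duct cells, an epithelium of the liver other than its hepatocytes, were set beside Gpx2. Of 5 tested of 7 listed bile duct markers, Epcam, an adhesion protein of bile duct cells, rose by 1.83 ± 0.21 on the log2 scale (adjusted p = 0.0147 by limma) and 4 did not pass. Their summed signal, relative to the array's 75th percentile, was 2.77 to 4.15 on the TBBC arrays and 1.13 to 1.30 on the vehicle arrays, with vehicle replicate 2 at 1.25. Such a sum weighs each gene by the brightness of its probe, so a gene's part in it is not a share of RNA. Epcam made up most of the bile duct sum, at 2.35 to 3.63 on the TBBC arrays and 0.676 to 0.968 on the vehicle arrays. The other 4 markers summed to 0.419 to 0.516 on the TBBC arrays and 0.287 to 0.626 on the vehicle arrays, which overlap. The keratin gene Krt19, a defining marker, differed by 0.44 ± 0.39, and Krt7 by -0.33 ± 0.24. Cftr exceeded background clearly on 3 of 3 TBBC arrays and 1 of 3 vehicle arrays. Of 9 hepatocyte markers, 0 rose and 1 fell, the secreted glycoprotein gene Ahsg by 0.83 ± 0.12 on the log2 scale (adjusted p = 0.0292 by limma). Their summed signal was 4392 to 4474 on the TBBC arrays and 5160 to 5859 on the vehicle arrays. The markers were not alike. TBBC lay below vehicle without overlap in 5 of 9 (Ahsg, Alb, Apoa1, Serpina1 and Tf), against 18.8% of all features. The groups overlapped for Ttr (-0.03 ± 0.11), Cps1 (0.26 ± 0.39), Cyp2e1 (-0.23 ± 0.14) and Hnf4a (-0.28 ± 0.20). Of the markers of myeloid cells, lymphocytes, endothelium and erythroid cells, 0 of 10, 0 of 9, 0 of 5 and 0 of 5 passed, and of 8 stellate cell markers 1 fell, the growth factor receptor gene Pdgfrb (-0.73 ± 0.14, adjusted p = 0.0461 by limma). Over all features 1.68% were called higher and 1.40% lower. The part of these cell types in the differences of the redox genes was not tested.

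In the thioredoxin branch, Srxn1, which restores over-oxidised peroxiredoxins, measured 3.68, 3.84 and 3.33 on the TBBC arrays, against 2.60, 2.45 and 2.94 on the vehicle arrays. The groups did not overlap. The difference of 0.95 ± 0.19 was just outside the threshold (adjusted p = 0.0524 by limma, 95% interval 0.50 to 1.40). A second, dimmer probe gave 0.52 ± 0.15, again without overlap, with -1.73, -1.83 and -1.91 on the TBBC arrays against -2.38, -2.08 and -2.55 on the vehicle arrays. The call of Srxn1 depended on the setting: it passed in 6 of 20 alternatives, among them the mean of its probes (0.73, adjusted p = 0.0362 by limma) and a robust variance trend (adjusted p = 0.0314 by limma).

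Txnrd1, the cytosolic thioredoxin reductase, a selenoprotein, had 4 probes whose differences were unequal. The brightest measured 2.36, 2.30 and 1.86 with TBBC, against 1.97, 2.58 and 1.93 with vehicle. The groups overlapped, with a difference of 0.02 ± 0.22 (adjusted p = 0.968 by limma, 95% interval -0.52 to 0.56). The others differed by 0.11 ± 0.19, 0.30 ± 0.19 and 0.50 ± 0.17. The last of these did not overlap, at 1.38, 1.71 and 1.08 on the TBBC arrays against 0.95, 0.86 and 0.88 on the vehicle arrays, and did not pass (adjusted p = 0.158 by limma with every probe on its own).

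Among the TBBC animals, replicate 3 had the lowest signal for Gclc, Gsr, Txnrd1 and Srxn1, and replicate 2 the highest for Gclc, Gsr and Srxn1. Gpx2 and Keap1 ran differently, with replicate 3 highest and replicate 1 lowest. TBBC replicate 3 also had the fewest probes well above background (36919). Summed myeloid marker signal was 72.3, 70.0 and 145 on TBBC replicates 1 to 3. It was 87.4, 63.0 and 127 on vehicle replicates 1 to 3. The part of either in the orders of the redox genes was not tested. With 3 animals these orders are a description only.

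**Figure D3:**
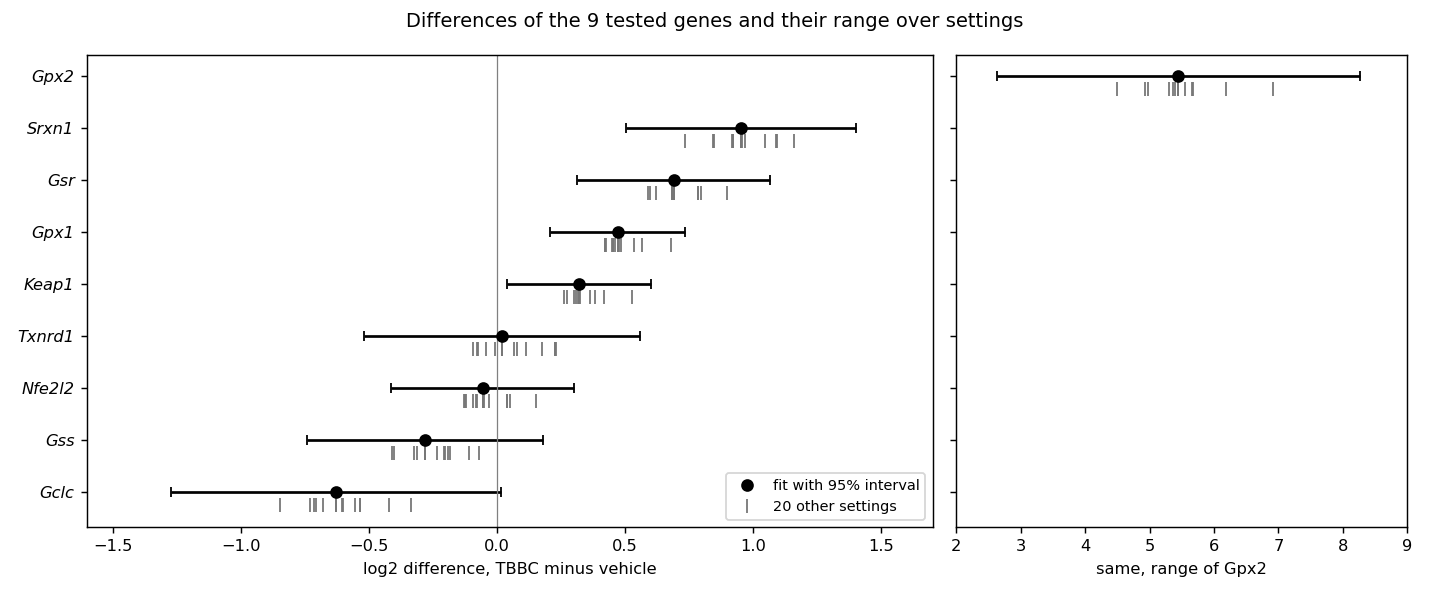
Log2 difference, TBBC minus vehicle, of the 9 tested genes with its 95% interval (points and bars) and under 20 other settings (grey ticks); the right panel has a wider scale for Gpx2. Gpx2, Srxn1, Gsr, Gpx1 and Keap1 stay above 0 and Gclc and Gss below 0 in all of them, while Txnrd1 and Nfe2l2 lie on both sides.

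Scaling on the spike-in controls moved the median log2 difference of all features to 0.15, against -0.06 with the 75th percentile, so it added the same amount to every gene. Of the calls over all features, 80.6% were then higher with TBBC, 70.9% with median centring and 54.5% with the 75th percentile. Each of these 3 scalings subtracts a constant per array, so differences set against the median of all features are identical by construction. They were 5.51 for Gpx2, 1.01 for Srxn1, 0.75 for Gsr, 0.53 for Gpx1 and 0.38 for Keap1. The others were 0.08 for Txnrd1, 0.01 for Nfe2l2, -0.22 for Gss and -0.57 for Gclc.

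By the Euclidean distance between profiles of 6 arrays, each centred on its own mean, the named genes nearest to Gpx2 among 10755 were Abcc3, an efflux pump (distance 3.46), Gstm3, a glutathione transferase (3.52), and Cyp2b2, a cytochrome P450 of drug metabolism (3.62). None of them shared the spread of Gpx2 in the vehicle group, where the SD was 0.38, 0.50 and 0.30 log2 units, against 2.58 for Gpx2. Profiles were not scaled, so this distance mostly picks genes with a rise of like size. The log2 differences of the 3 were 4.96, 4.69 and 4.18.

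Other genes of the pathway were counted by list, and the lists too were chosen with earlier results of these data known. Of 24 other NRF2 targets, 7 rose, 0 fell and 17 did not pass, with a median log2 difference of 0.69. Of all features 1.68% were called higher and 1.40% lower. When vehicle replicate 2 was left out, 3 rose, where 0.471% of all features were called higher and 0.252% lower. Abcc3, which exports conjugates from hepatocytes, rose by 4.96 ± 0.21, Ces2c, a carboxylesterase, by 3.34 ± 0.28 and Ephx1, the microsomal epoxide hydrolase, by 1.57 ± 0.14. These 3 passed without vehicle replicate 2 as well, whereas the glutathione transferase genes Gstm1, Gsta3, Gsta4 and Mgst2 did not (adjusted p = 0.0836 to 0.118 by limma). Their differences without that array were 1.15, 0.66, 0.86 and 0.93 in that order, against 1.13, 0.76, 0.87 and 1.04 with it. No other array was left out for this list. Over all features, leaving out any 1 array lowered the number called higher from 492 to between 77 and 212. The lost calls therefore do not single out vehicle replicate 2. Several of the 7 are also known targets of the drug-sensing receptors CAR and PXR.

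Of these 24 targets TBBC lay above vehicle without overlap in 12 (12.3% of all features) and below it in 2, Ftl1 at -0.25 ± 0.11 and Gstp1 at -0.37 ± 0.18 (18.8% of all features). Nqo1 and Hmox1, a pair much used as a readout of NRF2 and named here after their values were seen, were among the 12 and did not pass. Nqo1, a quinone reductase, measured 2.67, 3.51 and 2.86 on the TBBC arrays, against -1.33, 1.35 and 1.31 on the vehicle arrays, a difference of 2.57 ± 0.72 (adjusted p = 0.113 by limma). Here vehicle replicate 1 stood apart, below both others, whereas in Gpx2 vehicle replicate 2 stood apart, above both others. Hmox1, which breaks down haem, measured 2.41, 2.15 and 1.86 on the TBBC arrays, against 1.04, 0.84 and 1.69 on the vehicle arrays, a difference of 0.95 ± 0.25 (adjusted p = 0.101 by limma).

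Since 1.68% of all features were called higher and 1.40% lower, 0 calls in lists of 14 to 26 genes are near that share. Of 26 other genes of glutathione, thioredoxin and peroxide defence, 0 passed in either direction, with a median of 0.10. Among them Sod1, the cytosolic superoxide dismutase, differed by -0.02 ± 0.12 and Gpx4, which reduces lipid peroxides, by 0.24 ± 0.11. Of 14 partners and regulators of NRF2, 0 passed (median 0.08), with the autophagy adaptor Sqstm1 at 0.13 ± 0.11 and the peptidase Dpp3 at 0.05 ± 0.11. Of 16 genes of selenoprotein synthesis and selenium supply, 0 passed (median 0.05), with the plasma selenium carrier Selenop at -0.10 ± 0.10 and Selenok, a selenoprotein of the endoplasmic reticulum, at 0.19 ± 0.14.

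Over all features 1.68% were called higher and 1.40% lower. At these shares 1 call in a list of 11 or 19 genes does not set that list apart. Of 19 genes of glutathione breakdown and cysteine supply, 0 rose and 1 fell (median -0.12). That gene was Cdo1, the dioxygenase that commits cysteine to oxidation, at 2.82, 2.93 and 2.82 on the TBBC arrays, against 3.78, 3.83 and 3.76 on the vehicle arrays. It fell by 0.93 ± 0.10 on the log2 scale (adjusted p = 0.0129 by limma). Of 11 genes that supply NADPH, the electron donor of both reductases, 1 rose and 0 fell (median -0.13). Nadk, the kinase that makes NADP from NAD, measured 3.51, 3.44 and 3.21 on the TBBC arrays, against 2.58, 2.51 and 2.37 on the vehicle arrays, a rise of 0.90 ± 0.13 (adjusted p = 0.0261 by limma).

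**Figure D4:**
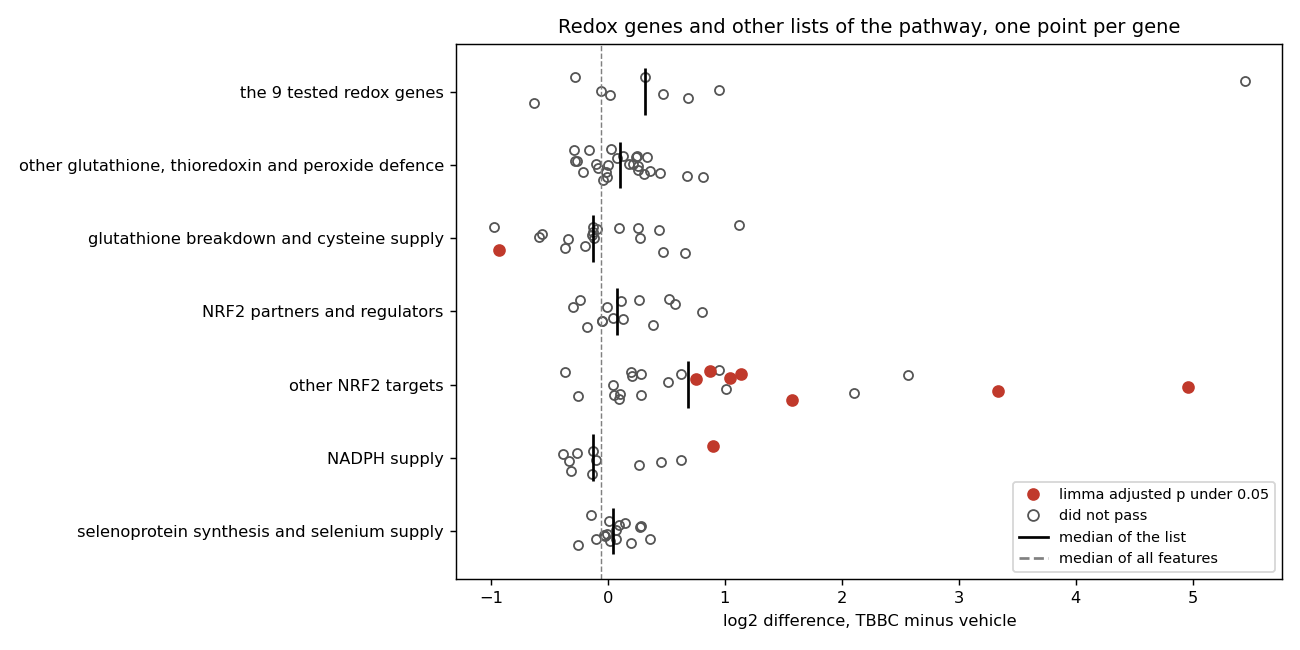
Log2 difference, TBBC minus vehicle, of each tested gene by list, with genes past an adjusted p of 0.05 filled, list medians as black bars and the median of all features dashed. The other NRF2 targets hold 7 of the 9 filled points, and none of the 9 redox genes is filled.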

How the data were processed

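Rat liver RNA was measured on 6 one-colour arrays, 3 per group. Per the file headers, the authors extracted spot intensity on a linear scale with Agilent Feature Extraction 10.7.1.1, which subtracts background; the array design names the build rn4. The deposited value table holds the same intensity divided by a constant per array, as the values show: its scale is linear with no centring of genes, and its column medians were 0.0977, 0.0972 and 0.0974 for TBBC and 0.101, 0.108 and 0.103 for vehicle replicates 1 to 3. It served as an alternative, beside other scalings, background corrections (normexp on median spot and background signals), filters, probe summaries and variance models, a replicate block and leaving out each array.

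Here log2 of the processed intensity was taken relative to each array's 75th percentile. Control spots and 25 probes with outlier flags were left out, and a probe was kept if every array of either group had it well above background (37222). Unversioned RefSeq accessions named 28206 probes (45.8%) through a table of GRCr8. Each gene was represented by its brightest probe and unnamed probes stood alone, which left 29326 features. The comparison used lmFit and eBayes of limma 3.58.1 (R 4.3.3), two-sided and without covariates, and p-values were adjusted over all features by Benjamini-Hochberg; the step was tested on simulated data. Replicates are numbered within each group and were taken as separate animals, so p-values measure the spread between animals within a slide. Each group had its own slide, so spread between slides does not enter them. The number of arrays limits the precision.

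The members and lists were chosen with earlier results of these data known. The text names all 10 genes, of each other pathway list up to 3 genes past the threshold or, where none passed, 2 of the highest mean signal, and the 3 profiles nearest to the gene with the largest difference. Named outside that rule, after their values were seen, were Nqo1, Hmox1, Ftl1, Gstp1, Gstm1, Gsta3, Gsta4 and Mgst2, the cell type markers, and the genes high on vehicle replicate 2. Same-numbered replicates were checked for pairing: the correlations of their deviations from the group means were 0.0035, -0.0216 and 0.144, so the numbers were not taken as pairs.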

Additional observations from a re-analysis of the deposited data

How the results depend on the processing

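Of the 9 tested genes none was called lower in any of the 20 settings tried, and 171 of 180 differences of single genes kept their direction. Genes called higher numbered 0 in the fit reported and 2 with median centring (Gsr, Srxn1), 2 with spike-in centring (Gpx2, Gsr), 4 with normexp (Gpx1, Gpx2, Gsr, Srxn1), 1 with a filter that asked for signal above background on each of the 6 arrays (Srxn1), 1 with the mean of a gene's probes (Srxn1), 2 with a robust variance trend (Gpx1, Srxn1), 2 with array weights (Gpx2, Srxn1), and 0 to 1 when 1 array was left out (Gpx2 without vehicle replicate 2). The causes were not tested. Nfe2l2 turned to 0.040 with median centring and 0.15 with spike-in centring, and leaving out 1 array put it between -0.13 and 0.051, positive without TBBC replicate 2 or vehicle replicate 1. Txnrd1 turned to -0.0091 with quantile normalization, and leaving out 1 array put it between -0.095 and 0.23, negative without TBBC replicate 1 or 2 or vehicle replicate 1 or 3.

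Features called higher and lower numbered 492 and 410. They were 746 higher with median centring, 136 lower with spike-in centring, 805 and 777 with normexp, 124 and 70 with no filter on dim probes, 632 lower with array weights, 133 and 78 with the replicate block, and 77 to 212 and 43 to 143 when 1 array was left out, where fewer samples enter. With the replicate block 0 of the 9 genes passed, Gpx2 having an adjusted p of 0.0849 by limma. The count of other NRF2 targets without vehicle replicate 2 (3 against 7) was chosen after seeing the data. Gclm could be tested only with no filter on dim probes.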

Other observations

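Gpx2 was 1 of 10 named genes that vehicle replicate 2 held at least 2 log2 units above both other vehicle arrays, a rule chosen after the values were seen. On the other 5 arrays, measured against their own group, 6 to 15 named genes met it. Over all features 40 met it on vehicle replicate 2, against 12 to 35 on each of the other 5 arrays. Features held as far below both others numbered 63 on vehicle replicate 2, against 18 to 39. The groups overlapped in 8 of the 10 named genes. In Agps, a gene of ether lipid synthesis, TBBC lay below vehicle without overlap, at 3.22, 3.06 and 2.98 on the TBBC arrays, against 3.222, 5.33 and 3.24 on the vehicle arrays. The widest was Rnf227, at -3.98, -3.50 and -3.73 on the TBBC arrays, against -3.74, 2.54 and -3.59 on the vehicle arrays. Sapcd2 was at -2.78, -2.80 and -2.73 on the TBBC arrays, against -2.66, 1.42 and -3.17 on the vehicle arrays. Cxcl9, a chemokine induced by interferon gamma, was at 1.76, 1.23 and 0.43 on the TBBC arrays, against -0.56, 1.65 and -0.78 on the vehicle arrays.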
